A study of Rattus norvegicus with 5 samples.

Results

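The 10 chemokines described here are the inflammatory CC chemokines Ccl2, Ccl3, Ccl4, Ccl6, Ccl7 and Ccl9 and the CXC chemokines Cxcl1, Cxcl2, Cxcl10 and Cxcl11, measured in cells sorted from rat blood as myeloid-derived suppressor cells (MDSCs), which are immature cells of the myeloid lineage able to restrain T cells. They were chosen by gene symbol: each has 1 probe whose single symbol in the platform annotation is that of the chemokine, so 10 genes of 5990 with such a probe, and 10 probes of 26856 in all. Tolerant cells came from LEW.1A rats that carried a LEW.1W kidney, mismatched at MHC class I and II, and had been treated with the antibody JJ319, which binds CD28, a costimulatory receptor of T cells (3 arrays). Syngeneic cells came from LEW.1A rats that carried a LEW.1A kidney (2 arrays), for which the labels give no antibody treatment. All cells were taken at day 100 after transplantation. Donor LEW.1W kidneys were from animals of 8 to 12 weeks, the labels leave the recipients' age unstated, and the recipients' own kidneys were removed 7 days after the allograft. Both groups were prepared alike: after lysis of red cells, MHC class II and CD3 positive cells were removed, and those stained for CD80 or CD86 were collected magnetically. By the submitters' design text each group had 3 recipients, whereas 2 syngeneic arrays were analysed here, and the labels do not say which animal an array came from. All p-values therefore rest on the scatter among these arrays, which may be technical.

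Chemokines are small secreted proteins that steer leucocytes through receptors on their surface. CC and CXC chemokines are named for whether the first of their conserved cysteines are adjacent or parted by 1 residue. The inflammatory members are made on stimulation, by monocytes and macrophages above all, and many are early targets of NF-kB and AP-1 transcription factors or of interferons. In myeloid suppressor cells they are known both as products and, through their receptors, as signals that bring the cells to a tissue.

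Of these 10 chemokines 5 were measured above background on all 5 arrays (Ccl3, Ccl4, Ccl6, Ccl9 and Cxcl10), 2 on the same 2 arrays only, tolerant 1 and syngeneic 1 (Ccl2 and Cxcl2), and 3 on no array (Ccl7, Cxcl1 and Cxcl11). Background was set array by array from 482 probes of olfactory receptors, as their 95th percentile, at log2 11.17, 10.76 and 10.79 for tolerant 1 to 3, against 10.83 and 10.85 for the syngeneic pair; such receptors are not expected in blood cells, and between 22.8% and 26.6% of all probes lay above it. All 10 passed the filter on low signal (mean log2 signal of 9.40 or more, the median over probes), so each has a tested difference, given throughout as tolerant minus syngeneic on the log2 scale. None passed (limma, adjusted p from 0.867 to 0.997), where 0.0447% of the 13428 tested probes did, and 1 of the 10, Ccl4, had an unadjusted p under 0.05, where 5.37% of tested probes did and 3.38% did with a lower level in tolerant cells. By sign 6 members were lower in tolerant cells and 4 were higher, the median being -0.18, against 49.7% of all tested probes lower and a median of 0.00. These counts include the 3 members at background on every array, whose signs carry no measured direction. Over the 5 members above background on all arrays the median was -0.41. Each value is a probe's quantile-normalised log2 signal, comparable between arrays but not between probes.

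**Figure D1:**
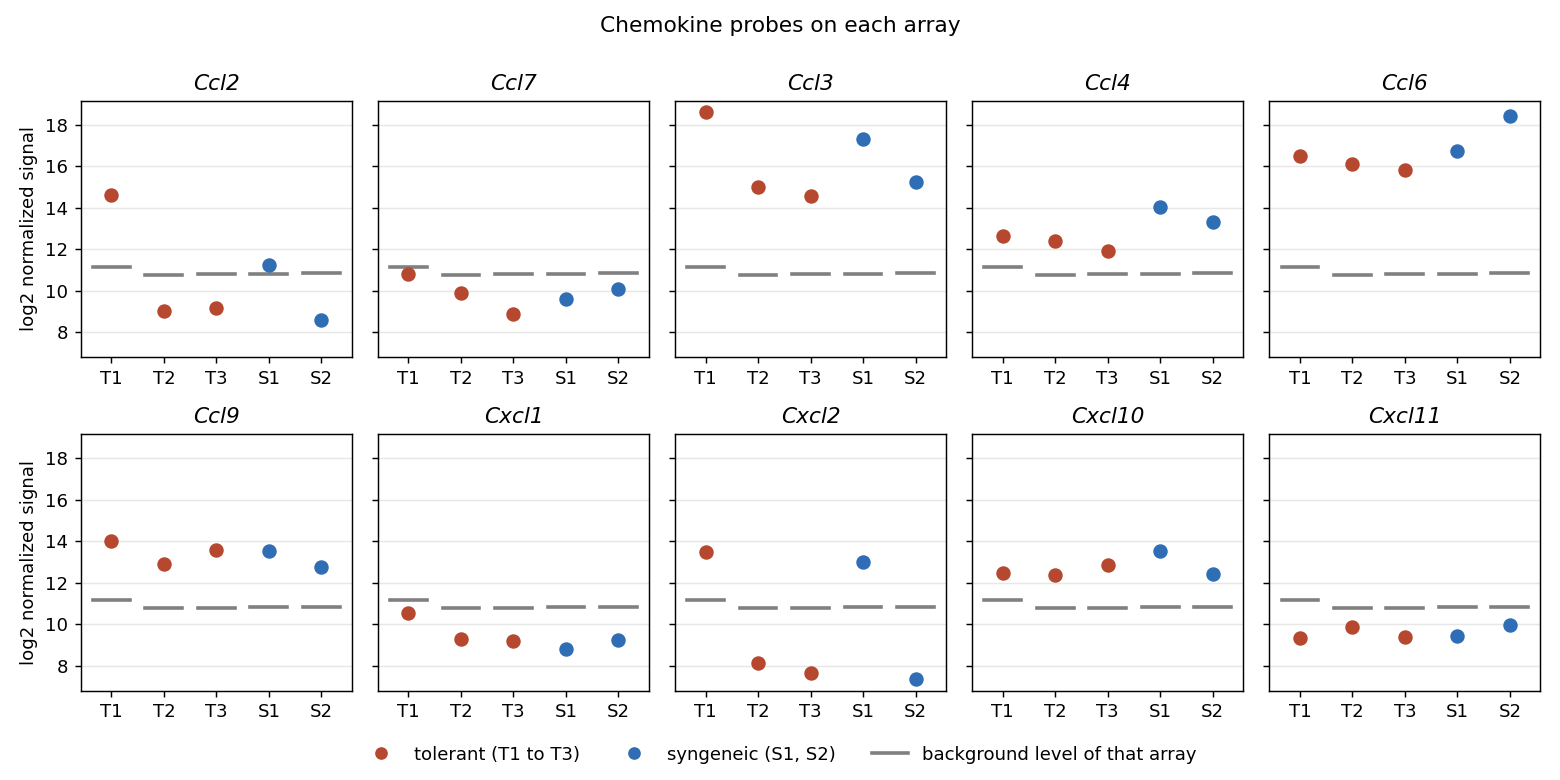
Each panel plots 1 chemokine probe. The y axis is the log2 normalized signal, the points are the 5 arrays (tolerant T1 to T3, then syngeneic S1 and S2), and the short bars are the background level of each array. Ccl2, Ccl3 and Cxcl2 are highest on T1 and S1, Ccl4 and Ccl6 are lower on all 3 tolerant arrays than on both syngeneic arrays, and Ccl7, Cxcl1 and Cxcl11 lie under the background bars throughout.

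Samples differed beyond these genes. Syngeneic 2 correlated at 0.83 to 0.85 with the other 4 arrays over all probes, and those 4 at 0.88 to 0.92 with each other. Transcripts used as markers of blood cell types differed between the groups. The neutrophil and monocyte lists hold genes of the myeloid lineage, to which the sorted cells belong, so they need not mark other cells. All 11 tested NK cell markers were lower in tolerant cells, 2 of them past the threshold, and 10 of 12 with a probe were at background on all 3 tolerant arrays. Summed over those 12, the normalised signal was 24712 to 36030 on tolerant arrays, against 191400 to 242184 on syngeneic arrays, with Ncr1 at background on all 5. Neutrophil markers summed to 42953 to 176989 on tolerant arrays, against 836880 to 2341420 on syngeneic arrays (7 of 7 tested lower, 0 past the threshold, Lcn2 at background on all 5). Most of the neutrophil sum came from S100a8 (log2 17.92 and 19.59 on syngeneic arrays 1 and 2) and S100a9 (19.11 and 20.51). Mmp8, Mmp9 and Cxcr2 were each above background on 1 array, a syngeneic one. The list's median centred log2 level was also lower on tolerant arrays (-0.70, -1.35 and -1.04) than on syngeneic arrays (1.27 and 2.54). Monocyte and macrophage markers summed to 1190590 to 2054450 on tolerant arrays, against 749514 to 942969 on syngeneic arrays, with 7 of 8 tested higher, 0 past the threshold and 5 of 8 above background on all arrays. Lyz2, the lysozyme of myeloid cells, made up 74.0% to 89.3% of that sum, and by the list's median the groups overlapped. B cell markers summed to 28041 to 187756 on tolerant arrays, against 5866 to 16688 on syngeneic arrays (2 of 2 tested higher, 0 past the threshold, neither at background on all 5). In such bulk samples fewer cells of a type and less RNA per cell cannot be told apart.

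Ccl2 (MCP-1, probe 20907835), which draws monocytes through the receptor Ccr2, had log2 signals of 14.59, 9.0 and 9.15 on tolerant arrays 1, 2 and 3, against 11.24 and 8.58 on syngeneic arrays 1 and 2. Tolerant 1 was the highest array and syngeneic 1 the next, and the other 3 arrays were at background, so the groups overlapped. Tolerant cells averaged 10.92 ± 3.19 (SD, n = 3) and syngeneic cells 9.91 ± 1.88 (SD, n = 2). The difference was 1.01 (SE 1.83, 95% interval -3.44 to 5.45, limma adjusted p = 0.952). Its sign rested on 1 array in either group, being -0.83 without tolerant 1 and -0.32 without syngeneic 2. With each low array set to its own background level, the Ccl2 signal of tolerant 1 was at least 14.1-fold higher than that of tolerant 2 and 3, whereas that of syngeneic 1 was at least 1.31-fold higher than that of syngeneic 2, a lower bound close to no difference. Ccl7 (MCP-3, probe 20948272), its neighbour on the chromosome in the RefSeq gene table and another ligand of Ccr2, had 10.82, 9.89 and 8.89 in tolerant cells, against 9.60 and 10.08 in syngeneic cells. Every one of these values was at background, so no fold is given for Ccl7.

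Ccl3 (MIP-1 alpha, probe 22331826), which attracts monocytes, T cells and NK cells through the receptor Ccr1, was far above background on every array. Its log2 signal was 18.60, 15.02 and 14.59 on the tolerant arrays, against 17.32 and 15.23 on the syngeneic arrays. Again tolerant 1 and syngeneic 1 stood above the other 3 arrays, and the groups overlapped. The averages lay close together, tolerant cells having 16.07 ± 2.21 (SD, n = 3) and syngeneic cells 16.28 ± 1.48 (SD, n = 2). Their difference of -0.21 (SE 1.32, 95% interval -3.42 to 3.00, adjusted p = 0.990) leaves changes of several fold in either direction undetectable with 5 arrays. It was -1.47 without tolerant 1, 0.84 without syngeneic 1, 0.32 without tolerant 2, 0.53 without tolerant 3 and -1.26 without syngeneic 2. Within the tolerant group, the signal of array 1 was 14.0 times the geometric mean of the other two, and syngeneic 1 was 4.28 times syngeneic 2.

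Ccl4 (MIP-1 beta, probe 21677876) is the close relative and chromosomal neighbour of Ccl3, made by macrophages, T cells and NK cells. Its log2 signal was 12.65, 12.40 and 11.93 in tolerant cells, against 14.05 and 13.30 in syngeneic cells. All 3 tolerant arrays lay below both syngeneic arrays, and within each group array 1 was the highest, by less than for Ccl3. Tolerant cells averaged 12.33 ± 0.37 (SD, n = 3) and syngeneic cells 13.68 ± 0.53 (SD, n = 2), which makes a difference of -1.35 (SE 0.46, 95% interval -2.47 to -0.23), 2.55-fold lower on average. That difference did not pass over all probes (limma, unadjusted p = 0.026, adjusted p = 0.867), and it lay between -1.73 and -0.97 with any 1 array left out. NK cell markers, whose summed signals are given above, were lower on the same 3 arrays, as were T cell markers (9 of 10 tested lower, 1 past the threshold, 15073 to 22976 summed on tolerant arrays, against 139052 to 139808 on syngeneic arrays, Cd6 and Zap70 at background on all 5), and their part in the Ccl4 difference was not tested. Because Ccl3 and Ccl4 are paralogs and the 60-base probe sequences were not used here, cross-hybridisation between them was not tested either.

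Ccl6 (probe 21981503), a CC chemokine known from rodents as a product of myeloid cells and in mouse as a ligand of Ccr1, was strongly above background on all arrays. Its log2 signal was 16.50, 16.10 and 15.83 in tolerant cells, against 16.72 and 18.41 in syngeneic cells. Groups did not overlap, but tolerant 1 and syngeneic 1 were only a little apart and syngeneic 2 was by far the highest. Ccl6 averaged 16.14 ± 0.34 (SD, n = 3) for the tolerant arrays and 17.56 ± 1.20 (SD, n = 2) for the syngeneic ones, and differed by -1.42 (SE 0.60, 95% interval -2.89 to 0.04, adjusted p = 0.907). Without syngeneic 2 the difference was -0.58, and without syngeneic 1 it was -2.27. The sum of the neutrophil markers given above was also lowest on tolerant arrays and highest on syngeneic 2, as were the sums of erythroid and platelet markers. Erythroid markers summed to 2862 to 5651 on tolerant arrays, against 49221 on syngeneic 1 and 2343940 on syngeneic 2 (3 of 4 tested lower, 0 past the threshold, Gata1, Epor and Alas2 at background on all 5). Most of the syngeneic erythroid sums came from the beta globins Hbb (log2 14.49 and 20.30) and Hbb-b1 (14.54 and 20.00). Slc4a1, the 1 tested gene of that list that was higher (0.32, SE 1.00), was above background on tolerant 1 and syngeneic 2. Platelet markers summed to 883 to 1401 on tolerant arrays, against 1951 on syngeneic 1 and 10834 on syngeneic 2 (1 of 1 tested lower, 0 past the threshold, Itgb3 at background on all 5). All 3 platelet markers with a probe were at background on every tolerant array, so the tolerant sums are no measured level. Nrgn, the 1 tested, was above background on syngeneic 2 alone (log2 12.82, against 10.16 on syngeneic 1). The part of cells with these transcripts in the Ccl6 difference was not tested. Ccl9 (MIP-1 gamma, probe 22326858), the neighbour of Ccl6 in the genome and in mouse likewise a ligand of Ccr1, had 14.01, 12.90 and 13.58 in tolerant cells, against 13.52 and 12.75 in syngeneic cells. Its arrays spanned a narrow range and the groups overlapped, with a difference of 0.36 (SE 0.51, 95% interval -0.89 to 1.61, adjusted p = 0.936). Of the 10 members, 2 (Ccl4 and Ccl6) were lower on every tolerant array than on every syngeneic array, or 20.0%, where 10.4% of tested probes were, and 0 were higher on every tolerant array, where 9.74% were.

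**Figure D2:**
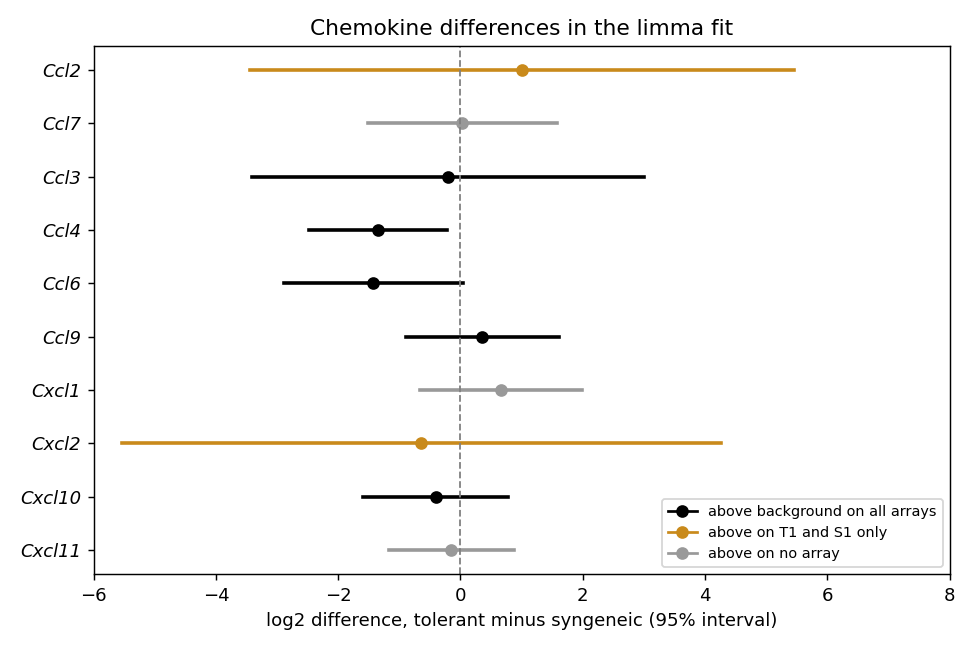
Fitted log2 differences, tolerant minus syngeneic, are shown as points with their 95% intervals as bars, 1 row per chemokine. Black rows were above background on all arrays, orange rows on T1 and S1 only, and grey rows on none. The intervals of Ccl2, Ccl3 and Cxcl2 are the widest, that of Cxcl2 running from -5.53 to 4.25, and the one interval that lies wholly below 0 is that of Ccl4.

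Among the CXC chemokines, Cxcl1 and Cxcl2 draw neutrophils through Cxcr2, and Cxcl10 and Cxcl11, both induced by interferons, draw activated T cells and NK cells through Cxcr3. In the RefSeq gene table Cxcl2 lies next to Cxcl1, and Cxcl11 next to Cxcl10. The 250 bases before each start site are shown for these 4 because each pair holds 1 gene measured above background and 1 that was not on any array. They are read 5′ to 3′ on the strand of the gene from RefSeq's GRCr8 build, and capitals mark every match to the NF-kB consensus on either strand, overlapping matches merged. The Cxcl2 sequence is chr14:17467256-17467505 on the minus strand, Cxcl1 is chr14:17479322-17479571 on the minus strand, Cxcl10 is chr14:15988816-15989065 on the plus strand, and Cxcl11 is chr14:15973478-15973727 on the plus strand.
Cxcl2: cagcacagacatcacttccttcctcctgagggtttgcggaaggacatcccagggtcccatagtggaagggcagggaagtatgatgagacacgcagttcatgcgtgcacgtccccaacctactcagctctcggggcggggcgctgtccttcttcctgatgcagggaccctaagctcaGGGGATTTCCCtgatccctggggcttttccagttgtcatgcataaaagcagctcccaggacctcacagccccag
Cxcl1: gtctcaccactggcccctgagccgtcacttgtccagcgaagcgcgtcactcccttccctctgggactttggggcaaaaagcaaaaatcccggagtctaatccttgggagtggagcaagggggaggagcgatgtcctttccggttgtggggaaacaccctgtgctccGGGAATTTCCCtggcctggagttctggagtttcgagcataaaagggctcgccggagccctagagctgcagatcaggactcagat
Cxcl10: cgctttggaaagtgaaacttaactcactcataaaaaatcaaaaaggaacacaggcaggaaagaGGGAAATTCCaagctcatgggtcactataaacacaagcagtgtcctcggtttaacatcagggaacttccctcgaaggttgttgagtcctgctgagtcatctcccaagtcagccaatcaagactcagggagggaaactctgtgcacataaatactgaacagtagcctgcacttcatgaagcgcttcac
Cxcl11: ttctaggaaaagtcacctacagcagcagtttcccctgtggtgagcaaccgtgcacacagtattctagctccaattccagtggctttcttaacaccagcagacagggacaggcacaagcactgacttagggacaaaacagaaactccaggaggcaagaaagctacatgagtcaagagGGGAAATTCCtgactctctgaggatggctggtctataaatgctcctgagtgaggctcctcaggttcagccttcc
An NF-kB consensus match was held by all 4, beginning 74 bases before the start of Cxcl2, 84 before that of Cxcl1, 187 before that of Cxcl10 and 74 before that of Cxcl11. Promoters were given for 7 members, and 5 of them held one, the fifth being Ccl9, where 3.54% of all 33469 promoters of that length did. The AP-1 site TGANTCA, searched on both strands, was held by Cxcl10, Cxcl11 and Ccl7, and by 6.34% of all promoters. Ccl2, Ccl3 and Ccl4 were not looked up elsewhere. The motif matches describe letters in a window and are no evidence of binding.

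Cxcl2 (MIP-2, probe 20807096) had the most uneven values of the 10. Its log2 signal was 13.47, 8.15 and 7.66 on tolerant arrays 1, 2 and 3, against 13.02 and 7.36 on syngeneic arrays 1 and 2. On 1 array of each group it was well above background, and on the other 3 arrays it lay far below it. As deposited, Cxcl2 averaged 9.76 ± 3.22 (SD, n = 3) for tolerant and 10.19 ± 4.00 (SD, n = 2) for syngeneic arrays. The fitted difference was -0.64 (SE 2.01, 95% interval -5.53 to 4.25, adjusted p = 0.974), with values under log2 8.29 raised to that level for the fit. It was -2.37 without tolerant 1, -3.01 without syngeneic 2, 1.73 without syngeneic 1 and 0.22 without either tolerant 2 or tolerant 3. In the raw, unnormalised intensities the same arrays stood out: Cxcl2 read 5812, 248 and 232 on the tolerant arrays, against 9605 and 167 on the syngeneic arrays. Cxcl1 (CINC-1, probe 22317053), whose protein acts on the same receptor, gave no measured signal to compare. Its log2 signal of 10.54, 9.31 and 9.20 in tolerant cells, against 8.82 and 9.22 in syngeneic cells, was at background on all arrays, and no fold is given.

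Cxcl10 (IP-10, probe 21382174) was above background on every array, with a log2 signal of 12.45, 12.38 and 12.88 in tolerant cells, against 13.52 and 12.43 in syngeneic cells. Syngeneic 1 was the highest array and syngeneic 2 lay among the tolerant arrays. The difference was -0.41 (SE 0.49, 95% interval -1.59 to 0.78, adjusted p = 0.922), -0.95 without syngeneic 2 and 0.14 without syngeneic 1. Cxcl11 (I-TAC, probe 21707155), induced alongside Cxcl10 by interferon gamma, had 9.34, 9.87 and 9.41 in tolerant cells, against 9.42 and 9.95 in syngeneic cells. No array rose above background for Cxcl11, and no fold is given.

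**Figure D3:**
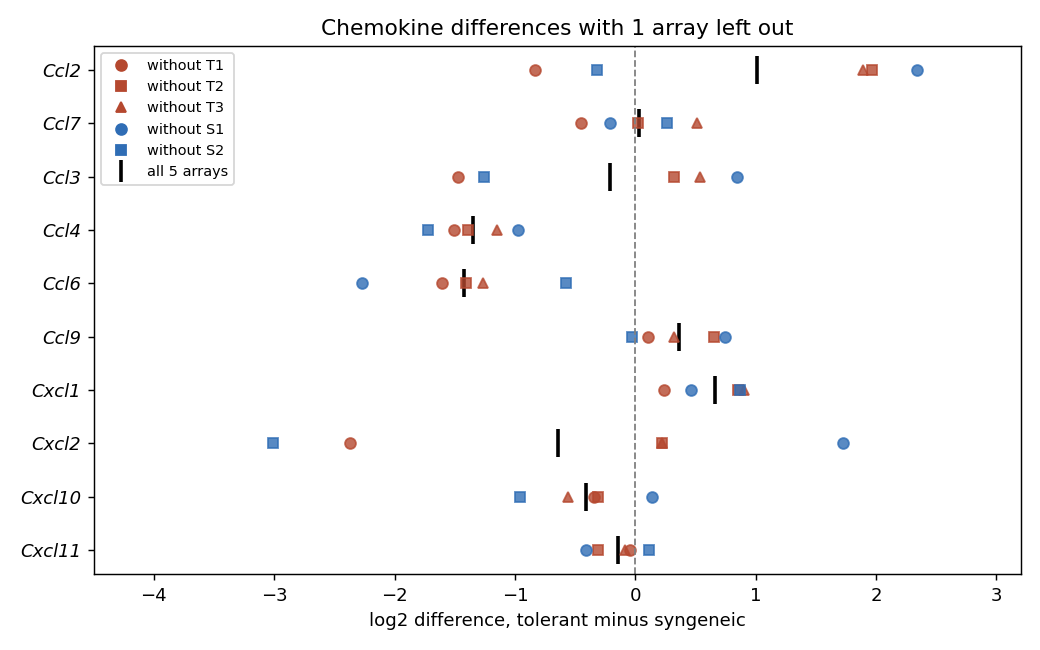
The x axis is the fitted log2 difference, tolerant minus syngeneic, for each chemokine with all 5 arrays (black bar) and with 1 array left out (red symbols without T1, T2 or T3, blue symbols without S1 or S2). Points of Ccl4, Ccl6 and Cxcl1 stay on 1 side of 0, and those of Cxcl2 run from -3.01 to 1.73.

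For 3 members the arrays of 1 group lay far apart. The within-group standard deviation of the fit was 3.11 for Cxcl2, 2.82 for Ccl2 and 1.99 for Ccl3, against a median of 0.61 over all tested probes. Only 0.0447%, 0.0745% and 0.775% of tested probes had a larger one than Cxcl2, Ccl2 and Ccl3, in that order. For the other 7 members it lay between 0.32 and 0.81. In all 3, tolerant 1 and syngeneic 1 were high and tolerant 2, tolerant 3 and syngeneic 2 low, but by unlike amounts. On syngeneic 1, Ccl2 was at log2 11.24, close to the background level of 10.83. Cxcl2 was at 13.02 there, near its 13.47 on tolerant 1. Both high arrays carry the number 1 in their titles, but no label says that a number marks a shared day, litter or batch, and a batch could not be tested. Ccl3 was above background throughout, and on the log2 scale tolerant 1 exceeded the mean of tolerant 2 and 3 by 3.80 and syngeneic 1 exceeded syngeneic 2 by 2.10, or by 3.11 and 1.70 under median scaling of the raw intensities. The low arrays of Ccl2 and Cxcl2 were at background, so their gaps have lower bounds only. For Cxcl2 the bounds were at least 6.46-fold in tolerant and at least 4.49-fold in syngeneic cells, and at least 3.78-fold and at least 4.09-fold under median scaling. For Ccl2 under median scaling they were at least 8.41-fold in tolerant and at least 1.22-fold in syngeneic cells. Without normalization the tolerant bounds were lower still, at 3.16-fold for Cxcl2 and 7.03-fold for Ccl2. The syngeneic bounds were then 4.83-fold for Cxcl2 and 1.44-fold for Ccl2. The summed monocyte and macrophage signal was also highest on array 1 of each group, at 2054450, 1641980 and 1190590 on tolerant arrays 1, 2 and 3, against 942969 and 749514 on syngeneic arrays 1 and 2. The median centred log2 level of that list was 0.54, 0.14 and 0.58 on the tolerant arrays, against 0.18 and -1.03 on the syngeneic arrays, so that tolerant 3 was highest. The part of cells with these markers, which may be the sorted cells themselves, in the spread of Ccl2, Ccl3 and Cxcl2 was not tested.

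**Figure D4:**
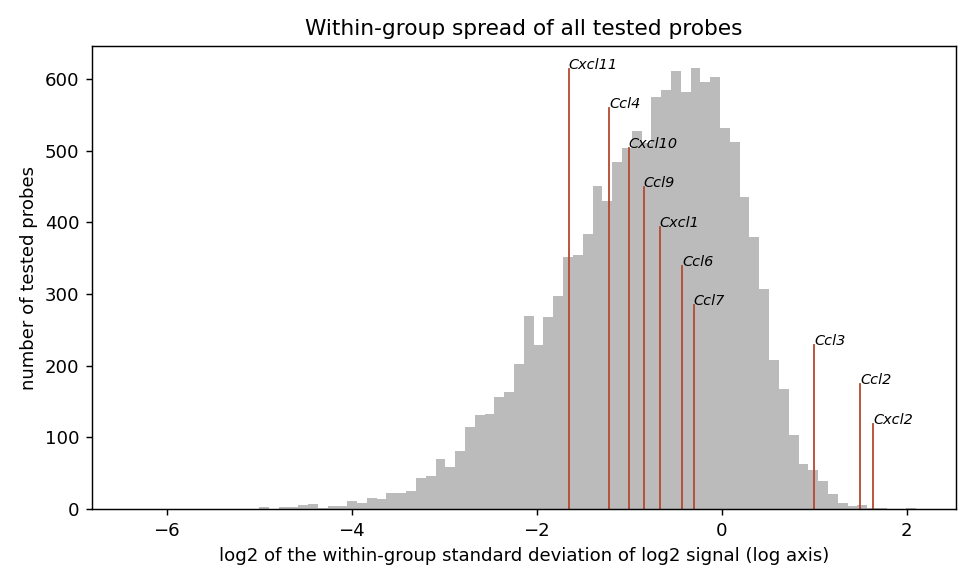
Grey bars count the 13428 tested probes by their within-group standard deviation, on a log axis (log2 of the standard deviation of log2 signal). Red lines mark the 10 chemokines, with Ccl3, Ccl2 and Cxcl2 in the upper tail and the others inside the bulk; line heights carry no value.

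To find genes with like array profiles, each of the other 3486 tested probes with 1 symbol was set against a member by the root mean square difference of their 5 centred log2 values. Nearest to Ccl3 were Stx6, a membrane fusion protein, at 0.42, and Egr1, an immediate early transcription factor, at 0.43, where Ccl3 itself varied by 1.55 about its mean. Egr1 had log2 signals of 13.59, 11.10 and 10.49 in tolerant cells, against 12.49 and 10.57 in syngeneic cells; as for every gene found by this search, the order of its arrays follows from how it was chosen. Ccl2 and Cxcl2, added to this search after their values were seen, had larger distances: nearest to Ccl2 were Ccl3 at 0.90 and Jun at 1.01, and nearest to Cxcl2 were Jun at 0.77 and Dusp4 at 0.84. Seen from Ccl3, however, Ccl2 had rank 43 and Cxcl2 rank 86 among the 3486 probes. Jun, a subunit of AP-1, had 15.41, 11.25 and 11.68 in tolerant cells, against 14.80 and 9.64 in syngeneic cells. Dusp4, a phosphatase induced by and acting on MAP kinases, had 12.16, 8.49 and 8.84 in tolerant cells, against 12.22 and 9.23 in syngeneic cells. Nearest to Ccl9 were Cds1 (0.07) and Gask1b (0.09), both above background on all arrays, to Ccl6 Asb2 (0.14) and Cd63 (0.18), and to Cxcl10 Rbm47 (0.05) and Nbn (0.10). Cd63 was above background on all arrays and Nbn on 4, but Asb2 and Rbm47 on 1 each. Of the genes near Ccl2, Ccl3 and Cxcl2, Jun was above background on 4 arrays, Egr1 on 3, and Stx6 and Dusp4 on 2 each. The 2 probes nearest to Ccl4, Klrc2 (0.15) and the olfactory receptor Or13p5 (0.19), were at background on all arrays. Likeness over 5 arrays is a description with no test.

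**Figure D5:**
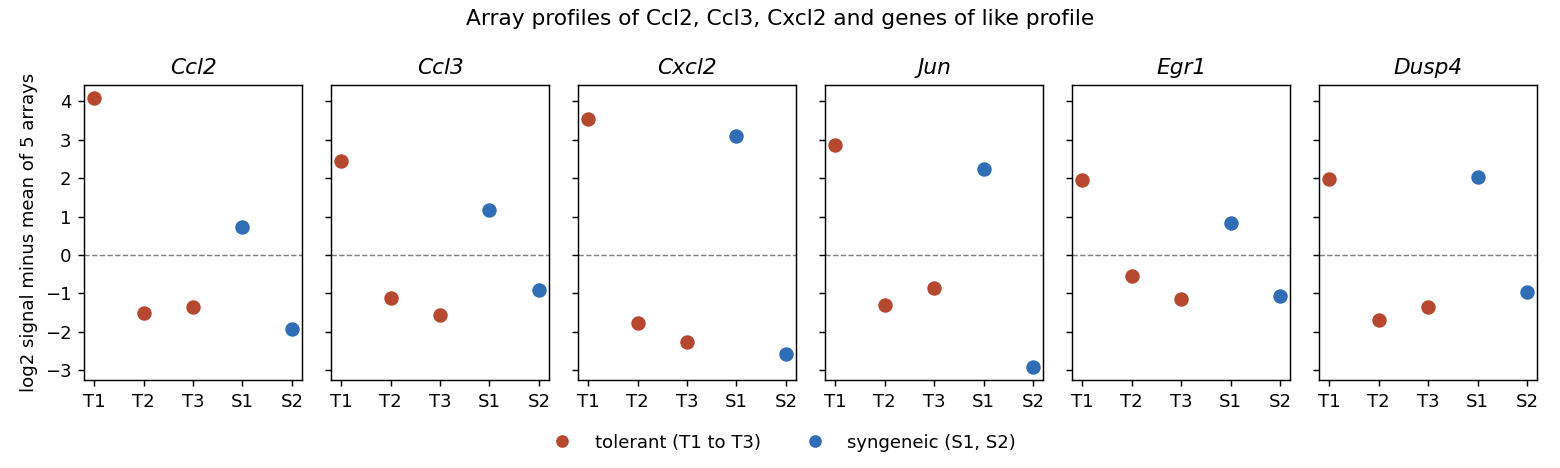
Log2 signal minus the mean of the 5 arrays is plotted for Ccl2, Ccl3 and Cxcl2 and for Jun, Egr1 and Dusp4, array by array (tolerant T1 to T3 in red, then syngeneic S1 and S2 in blue). In all 6 panels T1 and S1 lie above 0 and the other 3 arrays below it.

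Receptors of these ligands were measured too. Ccr1, through which Ccl3 acts, was above background on all arrays, with 14.34, 14.66 and 14.88 in tolerant cells, against 14.47 and 15.58 in syngeneic cells on the brighter of its 2 probes, and differed by -0.40 (SE 0.49) there and by -0.92 (SE 0.50) on the other. Ccr2, the receptor of Ccl2 and Ccl7, had 12.51, 12.04 and 13.54 in tolerant cells, against 13.78 and 8.08 in syngeneic cells, so it was at background on syngeneic 2 alone. Cxcr2, the receptor of Cxcl1 and Cxcl2, was above background on syngeneic 1 alone. It had 8.73, 9.55 and 10.79 in tolerant cells, against 11.86 and 9.91 in syngeneic cells. Its difference of -1.20 (SE 0.83, adjusted p = 0.907) is mostly measured against background. Cxcr3, the receptor of Cxcl10 and Cxcl11, had 9.92, 10.87 and 9.19 in tolerant cells, against 12.11 and 13.24 in syngeneic cells. All 3 tolerant values of Cxcr3 lay below both syngeneic values, with a difference of -2.68 (SE 0.64, adjusted p = 0.563) that is partly measured against background, since 1 tolerant array lay above it. The remaining receptor named for its small p, Cx3cr1, differed by -1.11 (SE 0.61, adjusted p = 0.907). Of 22 chemokine receptors listed, 14 had a named probe and 9 were tested; 4 were lower, 5 higher and 0 past the threshold, with a median of 0.07.

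Other chemokines were mostly silent. Of 24 listed, 12 had a named probe, all 12 were at background on the 3 tolerant arrays, 9 of them on every array, and neither of the 2 tested, Ccl11 (eotaxin) and Cx3cl1 (fractalkine), passed (adjusted p of 0.907 and 0.934). Cx3cl1 was at background on all arrays and Ccl11 on all but syngeneic 2, so no fold is given. Ccl5, the CC chemokine known for drawing T cells, was among the 6 tested probes past the threshold, all of them lower in tolerant cells. Its log2 signal was 13.10, 12.32 and 11.82 in tolerant cells, against 19.87 and 19.56 in syngeneic cells, a difference of -7.30 (SE 0.51, adjusted p = 0.036). The 3 tolerant values lay far below both syngeneic values.

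Inducers of inflammatory chemokines showed no called change. In the list of NF-kB components and inflammatory inducers 13 of 19 genes with a probe were tested, 5 lower and 8 higher, 0 past the threshold, with a median of 0.11. Il1b, an inflammatory cytokine that induces many chemokines, had 16.45, 15.00 and 15.39 in tolerant cells, against 17.17 and 18.95 in syngeneic cells, a difference of -2.45 (SE 0.71, adjusted p = 0.766). Its highest array was syngeneic 2, one of the arrays on which Ccl2, Ccl3 and Cxcl2 were low. Tnf and Il6 were at background on all arrays. The next in that list by p were Cd14 (1.22, SE 0.51, adjusted p = 0.907) and Nfkb2 (0.61, SE 0.40, adjusted p = 0.907). Among interferon response genes, which bear on Cxcl10 and Cxcl11, 14 of 15 were tested, 8 lower and 6 higher, 0 past the threshold, with a median of -0.11. The antiviral genes with the smallest p were Rsad2 (-1.63, SE 0.47, adjusted p = 0.749), Isg20 (-2.33, SE 0.70, adjusted p = 0.773) and Oas1a (-1.18, SE 0.50, adjusted p = 0.907). Rsad2 was at background on all arrays but syngeneic 1, where it read 10.86 against a level of 10.83. Ifng itself was at background on all arrays.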

How the data were processed

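RNA of 5 samples was hybridised to Applied Biosystems' rat genome survey array (1 colour, 60-base probes) as amplified digoxigenin-labelled cRNA, per the labels' protocols. The deposited raw table holds linear probe intensity, not normalized between arrays; how background was subtracted is not stated in the labels. The values in the deposited series matrix are log2 signals, quantile normalized by the authors: recomputed from the raw table they differed by at most 0.000102. The matrix was used here, floored at its 10th percentile (log2 8.29). Probes with a mean at or above 9.40, the median, were tested (13428 of 26856) with limma 3.58.1 in R 4.3.3, with Benjamini-Hochberg adjustment over all of them, the source of every adjusted p. The number of arrays limits the precision. Gene names are those of GEO's annotation of the platform, which can be old: 6104 probes have 1 symbol, 70 several and 20683 are not listed. Of the Entrez identifiers 6081 matched the RefSeq table, with 0 changed symbols. The brightest probe stands for a gene that has more than 1.

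The members and gene lists were chosen with earlier results of these data known. All members are named, with the 3 genes of smallest p in each list of other chemokines, receptors, inducers and interferon genes, the 2 probes nearest in profile, and Ccl5; other genes were named after their values were seen. The background level had been planned on symbols starting Olr (18 probes) and was widened to all olfactory receptor symbols. Alternatives were median scaling, no normalization, own quantile normalization, no filter, no floor, an offset of 50, array weights, a replicate block, each array left out, and other background levels. Gaps between single arrays whose low array was at background are lower bounds, with that array set to its background level, a choice made after the data were seen.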

Additional observations from a re-analysis of the deposited data

How the results depend on the processing

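The count of 13428 tested probes past the threshold was 6 and was the least stable value: it was 53 under median scaling of the raw intensities, 81 without normalization, 0 with no filter on low values, 0 with array weights, and between 0 and 91 with 1 array left out (91 without syngeneic 1, 38 of them lower, and 0 without any of the other 4, where 511 to 684 had an unadjusted p under 0.05). Beside those counts of 0, 562 probes had an unadjusted p under 0.05 with array weights and 1759 of 26856 with no filter. The median of all tested probes was -0.16 under median scaling and -0.37 without normalization. The count of members past the threshold was 0 in the fit and under every alternative that kept both syngeneic arrays. Among these the smallest member adjusted p was 0.530 (limma, Ccl6, without normalization). The members' median difference was -0.56 to -0.17 under the other scalings, floor, filter, offset and weights and -0.64 to 0.30 with 1 array left out, less than the spread between arrays (0.78) from the main value. Of 130 member differences under alternatives 111 kept their sign, including every one of Ccl4, Ccl6 and Cxcl1. Own quantile normalization and no filter gave the main difference for every member, and no floor did for all but Cxcl2. Such identical differences could not change sign and say nothing about stability. Ccl7, at background, was -0.10 under median scaling, -0.31 without normalization and -0.16 with array weights, and Ccl9 was -0.10 without normalization. With 1 array left out the range was -0.83 to 2.34 for Ccl2, -0.45 to 0.52 for Ccl7, -1.47 to 0.84 for Ccl3, -0.029 to 0.75 for Ccl9, -3.01 to 1.73 for Cxcl2, -0.95 to 0.14 for Cxcl10 and -0.41 to 0.11 for Cxcl11. The number of members above background on all arrays was 5 at the 90th, 95th and 99th percentile, under both other scalings, and with the 18 Olr probes alone, a level added after the data were seen. Where a cause of these moves is not fewer arrays, the cause was not tested.

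The titles number arrays 1 and 2 in both groups, with no label that pairs them. Deviations from the group means correlated at -0.10 over tested probes between the arrays numbered 1 and at 0.02 between those numbered 2. With 2 syngeneic arrays the deviations of 1 mirror those of the other, so these values cannot decide on pairs or a shared batch. For want of a label the numbers were not taken as pairs. With the replicate block 0 probes passed (474 at an unadjusted p under 0.05), the members' median was 0.27, Ccl3 was 0.53 and Cxcl2 was 0.22.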

Other observations

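Immediate early genes, a list drawn up after the profiles of Jun, Egr1 and Dusp4 had been seen and so given as values only, did not all share the profile of Ccl2, Ccl3 and Cxcl2. Of 22 tested genes 11 were lower and 11 higher in tolerant cells, 0 past the threshold. Ier3, of smallest p in the list, had 8.97, 8.43 and 8.74 in tolerant cells, all at background, against 11.45 and 12.71 in syngeneic cells. Nr4a1, next by p, had 16.10, 15.07 and 15.45 in tolerant cells, against 15.04 and 11.20 in syngeneic cells. Junb, another AP-1 subunit, had log2 signals of 13.82, 12.83 and 12.61 in tolerant cells, against 15.00 and 9.93 in syngeneic cells, and was highest on syngeneic 1 and tolerant 1. Dusp1, a phosphatase of MAP kinases, had 19.16, 16.24 and 16.39 in tolerant cells, against 18.17 and 18.84 in syngeneic cells, so that syngeneic 2 was high as well. Zfp36, which binds and destabilises AU-rich mRNAs of cytokines and chemokines, had 17.26, 15.53 and 15.87 in tolerant cells, against 16.31 and 16.81 in syngeneic cells. Atf3 and Nr4a2 were at background on all arrays. Klf4 and Btg1 varied little, with Klf4 at 17.50, 16.85 and 17.86 in tolerant cells, against 17.02 and 17.23 in syngeneic cells.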
